A study of Homo sapiens with 18 samples.

Results

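The 9 genes described here encode factors of nonsense-mediated mRNA decay: UPF1, UPF2, UPF3A, UPF3B, SMG1, SMG5, SMG6, SMG8 and SMG9. They were picked by symbol as members of this pathway from the 27781 gene rows of the deposited count table, and all 9 were found and passed the filter on low counts. RNA came from K562, a human leukemia line with the BCR-ABL1 fusion. Knockdown cells received antisense gapmers, oligonucleotides that direct RNase H to a target RNA, that target the backsplice junction of a circular RNA of PCMTD1, named circPCMTD1. Control cells received scrambled gapmers in place of these. Cells of both groups were taken 48 hours after transfection, and no untransfected cells were among the 18 libraries analysed here. By the submitters' design a group has 9 libraries, 3 technical ones for each of 3 biological replicates. The library names run from 1_1 to 3_3, and no label says which number is which. The first was taken as the biological replicate, and its technical libraries were summed. A free-text label calls the agents siRNA, while the treatment label and protocol name gapmers.

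Nonsense-mediated decay removes mRNAs on which translation stops too early, and it also sets the level of many normal mRNAs. The helicase UPF1 binds terminating ribosomes and is joined by UPF2 and by UPF3B or UPF3A, which link it to exon junction complexes left behind by splicing. The kinase SMG1, held in check by SMG8 and SMG9, phosphorylates UPF1, and phosphorylated UPF1 recruits SMG6, which cuts the mRNA, or SMG5, which helps to bring in deadenylation and decapping. Transcripts of several of these factors are themselves substrates of the pathway, so that their levels are part of a feedback loop. Counts of RNA per gene do not measure the activity of the pathway.

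Library totals ran from 19118533 to 29432699 counts and the sums per replicate from 63851576 to 76087774. The identity of the cells was checked against markers. Of 9 erythroid genes typical of K562, all 9 were measured at a mean of 49.3 CPM (counts scaled to library size) or more, with a summed level of 13200 to 13450 CPM in scrambled and 13790 to 14580 CPM in knockdown replicates. Of 9 lymphoid markers, 1 was at 0 in all samples and the sum lay between 5.14 and 5.81 CPM in scrambled and between 7.75 and 8.07 CPM in knockdown replicates. The lymphoblast named in the labels thus had its defining genes at or near 0, with CD3D highest at 4.67 CPM in scrambled and 6.43 CPM in knockdown cells. In edgeR 4 erythroid markers were called higher and 1 lower, and the lymphoid marker CD3D was called higher, and their part in the results was not tested. PCMTD1, the host gene, was lower in all 9 knockdown libraries (11.02 to 14.16 CPM) than in any scrambled library (18.6 to 24.1 CPM), although a gene-level count cannot separate its circular from its linear RNA. Knockdown libraries 3_2 and 3_3 differed from the other 7 knockdown libraries in several of the decay factors, by values given below. How far they differed over all genes is not given here. Several results are given with and without these libraries.

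Promoter windows from RefSeq (GRCh38.p14, 300 bases that run from before to just after an annotated start) were matched for 8 of the 9 genes, and SMG8 had no entry. The window nearest to the GENCODE gene start was searched on both strands for CACGTG, an E-box bound by MYC, TGATGNAA, the core of the composite site bound by ATF4, the NRF1 site and TCGCGAGA, an element found in promoters of broadly expressed genes, which was added after the windows had been read. TCGCGAGA was present in 3 of the 8 windows, those of SMG5, UPF3A and UPF3B, while 1.15% of all 35116 windows held it. Because the element was picked from these same windows, its count in them is no evidence of enrichment. The 35116 windows also hold several starts of some genes, whereas only the nearest was taken for each factor. The 3 windows are printed because they share this element, with each match in capitals. That of SMG5 (chr1:156282776-156283075, minus strand) held 2 separate matches, that of UPF3A (chr13:114281351-114281650, plus strand) held 1, and that of UPF3B (chrX:119852914-119853213, minus strand) held 2 that overlap on opposite strands.
SMG5: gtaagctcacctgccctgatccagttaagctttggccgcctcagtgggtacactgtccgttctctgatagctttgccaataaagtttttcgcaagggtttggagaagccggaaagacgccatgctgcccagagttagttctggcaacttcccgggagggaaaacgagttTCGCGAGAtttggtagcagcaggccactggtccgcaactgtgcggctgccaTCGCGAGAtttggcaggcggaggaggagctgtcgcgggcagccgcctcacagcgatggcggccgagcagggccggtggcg
UPF3A: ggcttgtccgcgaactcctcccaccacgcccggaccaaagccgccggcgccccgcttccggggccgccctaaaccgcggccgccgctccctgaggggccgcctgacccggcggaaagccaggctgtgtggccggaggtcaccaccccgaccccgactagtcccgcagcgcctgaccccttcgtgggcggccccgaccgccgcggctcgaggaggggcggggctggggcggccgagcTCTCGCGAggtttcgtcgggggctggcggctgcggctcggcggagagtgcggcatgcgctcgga
UPF3B: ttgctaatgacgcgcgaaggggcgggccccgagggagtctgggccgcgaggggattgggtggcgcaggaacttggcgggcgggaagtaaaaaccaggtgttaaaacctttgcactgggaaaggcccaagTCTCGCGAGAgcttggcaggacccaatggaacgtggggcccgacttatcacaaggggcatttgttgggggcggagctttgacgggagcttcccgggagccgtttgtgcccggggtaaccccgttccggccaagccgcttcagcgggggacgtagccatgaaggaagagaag
CACGTG was found in 1 window, that of UPF2, against 7.26% of all windows, and the NRF1 site in 1, that of SMG9, against 1.24%. TGATGNAA was in none of the 8 windows and in 3.62% of all. These are matches of letters, and of the 3 genes that shared TCGCGAGA only SMG5 passed the test for a change described next.

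Of the 9 decay factors, 1 fell in knockdown cells and 0 rose. SMG5 was the one that fell, by 0.19 on the log2 scale, and the other 8 did not pass edgeR's quasi-likelihood test at an adjusted p below 0.05. DESeq2 also called 1 lower and 0 higher (8.16% and 9.57% of its genes). Across the 15678 genes tested 7.49% were called lower and 11.1% higher, 18.6% in all, so the share of decay factors called was near that of all genes. The median log2 fold change was -0.04 over the 9 factors and 0.002 over all genes tested. Of the 9, 8 had a value below 0, but the sign of UPF1, UPF3A, UPF3B and SMG1 turned in some alternative fits. The share of all genes below 0 was not taken. All 3 knockdown replicates lay below all 3 scrambled replicates for 3 of the 9 (SMG5, SMG6 and SMG9), where 16.5% of all tested genes did so. The 3 knockdown replicates lay above the scrambled ones for 0 of the 9, and for 18.1% of all genes. The count of factors called lower depended on the fit. It was 4 with the replicate number as a block (11.3% of all genes called lower), 4 with libraries entered singly (14.7%), 4 when summed by the second number (15.2%), 5 with GC correction (16.7%), and 5 with that and the block (16.8%). Leaving out knockdown libraries 3_2 and 3_3 gave 3 (15.5%), and the count was 2 without knockdown replicate 3 (14.3%), while 0 rose in any fit, the one without those libraries (16.5% of all genes called higher) included.

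**Figure D1:**
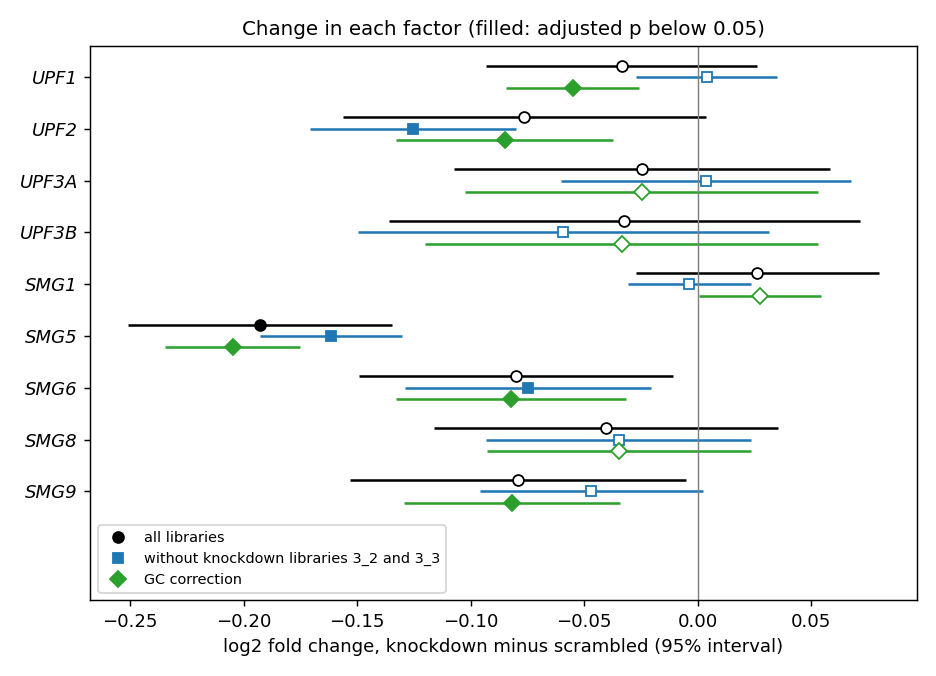
Log2 fold change of each decay factor (knockdown minus scrambled) with its 95% interval, from all libraries (circles), without knockdown libraries 3_2 and 3_3 (squares) and with a GC-content correction (diamonds). Filled symbols have an adjusted p below 0.05 in edgeR, and SMG5 is filled in all 3 fits, at -0.19, -0.16 and -0.20.

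SMG5 encodes an adaptor that binds phosphorylated UPF1 and promotes both decay and the dephosphorylation of UPF1. In GRCh38 the gene spans 156249224 to 156282825 of chromosome 1 (minus strand). The 3 scrambled replicates measured 274, 271 and 268 CPM, and the 3 knockdown replicates 241, 243 and 227 CPM. The groups did not overlap, nor did they in single libraries, which ran from 262 to 277 CPM in the 9 scrambled and from 219 to 248 CPM in the 9 knockdown libraries. Such a separation of all 9 from all 9 libraries was seen in 2.36% of tested genes and in 1 of the 9 decay factors. The means were 271 ± 3.09 and 237 ± 8.36 CPM (SD, n = 3), a log2 fold change of -0.19 (SE 0.028) with an adjusted p of 4.05e-05 in edgeR. The 95% interval of the change ran from -15.96% to -8.92%. Fewer cells with the RNA and less RNA per cell cannot be told apart in these bulk samples. Without knockdown libraries 3_2 and 3_3 the log2 fold change was -0.16, and SMG5 passed the test in each of the 16 alternative fits, at values from -0.21 to -0.16.

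SMG6, the endonuclease that cuts the mRNA near the stop codon, lies on chromosome 17 (2059839 to 2303771, minus strand). Its scrambled replicates were at 56.2, 54.7 and 53.7 CPM and its knockdown replicates at 52.1, 52.4 and 51.2 CPM. The replicates did not overlap, but single libraries did. Log2 fold change was -0.08 (SE 0.033), with an adjusted p of 0.101 in edgeR and an interval of -9.83% to -0.76%. It passed the test without knockdown libraries 3_2 and 3_3 (-0.07, adjusted p = 0.0256 in edgeR, where 15.5% of all tested genes were called lower) and with the GC correction (-0.08, adjusted p = 0.0100, where 16.7% were). Of the annotated exon bases of SMG6, 22.9% also lie in HIC1 on the opposite strand, and the strand setting of the counting is not given in the sources used here, although HIC1 itself was counted at 1.33 CPM in scrambled and 1.599 CPM in knockdown cells.

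SMG1, SMG8 and SMG9 form the kinase complex, and none of them passed the test. SMG1, a kinase of the PI3K-related family, lies on chromosome 16 (18804853 to 18926454, minus strand) and was the gene of this group with the most counts. It was at 440, 442 and 442 CPM in scrambled and 438, 443 and 467 CPM in knockdown replicates, so the groups overlapped. Log2 fold change was 0.03 (SE 0.026, adjusted p = 0.531 in edgeR), and the interval ran from -1.87% to 5.68%. The highest replicate holds libraries 3_2 and 3_3, at 485 and 478 CPM, and without them the log2 fold change was -0.004.

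SMG8, a subunit that restrains the kinase, lies on chromosome 17 (59209400 to 59215247, plus strand). It was at 49.1, 46.4 and 47.3 CPM in scrambled and 45.9, 48.0 and 44.9 CPM in knockdown replicates, and the groups overlapped. The log2 fold change of -0.04 (SE 0.037) did not pass (adjusted p = 0.488 in edgeR), with an interval of -7.74% to 2.47%. SMG9, which binds SMG8 in the same complex, lies on chromosome 19 (43727992 to 43754990, minus strand). Scrambled replicates were at 68.6, 67.3 and 68.7 CPM and knockdown replicates at 67.0, 65.7 and 60.9 CPM, without overlap. The log2 fold change of -0.08 (SE 0.036) had an adjusted p of 0.131 in edgeR. The lowest replicate again holds libraries 3_2 and 3_3 (61.8 and 56.8 CPM), and without them the value was -0.05 (adjusted p = 0.145). With the GC correction it was -0.08 and passed (adjusted p = 0.00655).

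SMG1 has partial copies elsewhere on chromosome 16 whose sequence is nearly that of the gene, so the division of reads among them is uncertain. Of the copies, 5 were in the table. By alignment of the longest GENCODE transcripts, SMG1P1 was 97.57% identical to SMG1 over 4223 bases, SMG1P2 97.71%, SMG1P3 96.75%, SMG1P5 97.71% and SMG1P7 96.28%. To show how alike they are, 100 bases of SMG1 exon 2 (chr16:18896857-18896956, minus strand) are printed above the matching stretch of SMG1P1, with the 2 bases that differ in capitals.
SMG1: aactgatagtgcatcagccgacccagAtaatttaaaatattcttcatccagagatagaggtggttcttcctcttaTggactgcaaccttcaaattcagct
SMG1P1: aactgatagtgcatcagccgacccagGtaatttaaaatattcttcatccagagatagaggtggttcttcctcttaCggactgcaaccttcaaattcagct
Between the 2 differing bases the sequences are identical, and how reads that match several genes were counted is not given in the sources used here. SMG1P3 and SMG1P1 had nearly equal counts, with a ratio of 1.00 to 1.02 in every one of the 18 libraries.

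The copies fell while SMG1 itself did not pass the test. All 5 were called lower in edgeR, with log2 fold changes of -0.13 for SMG1P1, -0.14 for SMG1P2, -0.13 for SMG1P3, -0.12 for SMG1P5 and -0.34 for SMG1P7, and adjusted p-values of 0.00695 or less, where 7.49% of all tested genes were called lower. SMG1P1 went from 437 ± 3.93 to 401 ± 15.4 CPM and SMG1P7, the least abundant, from 8.27 ± 0.194 to 6.53 ± 0.286 CPM (SD, n = 3). Since the ratio of a copy to SMG1 within a library needs no scaling between libraries, it was taken in each. SMG1P1 stood at 0.971 to 1.02 counts per SMG1 count in the 9 scrambled libraries and at 0.867 to 0.915 in the 9 knockdown libraries. The groups did not overlap for SMG1P1, nor for any of the other 4 copies. Of all tested genes, 2.16% had a ratio to SMG1 that was lower in all 9 knockdown libraries than in all 9 scrambled libraries. Over the summed replicates the ratio changed by -10.1% for SMG1P1, -11.1% for SMG1P2, -10.2% for SMG1P3, -9.9% for SMG1P5 and -22.4% for SMG1P7. A two-sided exact permutation test gave p = 0.1 for each, the smallest value possible with 3 against 3 samples. The 5 ratios share the SMG1 count and may in part share reads. In the annotation 29.2% of the exon bases of SMG1P1 also belong to NPIPB5 on the same strand, 8.74% to RRN3P3 and 2.24% to CDR2 on the opposite strand, and 5.43% of those of SMG1P3 to NPIPB3 and 7.54% to SLC7A5P2, while SMG1P2, SMG1P5 and SMG1P7 shared no exon base with another gene.

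**Figure D2:**
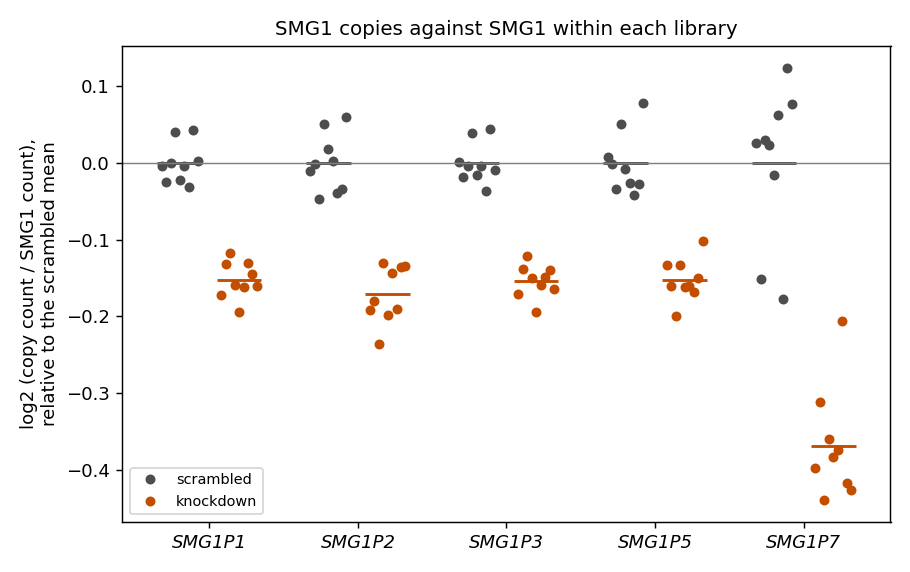
Log2 ratio of the count of each SMG1 copy to that of SMG1 within each library, relative to the mean of the 9 scrambled libraries. Points are libraries and bars group means. For each copy the 9 knockdown libraries lie below the 9 scrambled libraries, which for SMG1P1 means 0.867 to 0.915 against 0.971 to 1.02 counts per SMG1 count.

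The UPF genes encode the core of the pathway. UPF1, the helicase, lies on chromosome 19 (18831938 to 18868236, plus strand). It was at 273, 268 and 267 CPM in scrambled and 268, 270 and 251 CPM in knockdown replicates, and the groups overlapped. Log2 fold change was -0.03 (SE 0.029, adjusted p = 0.465 in edgeR), and the interval of -6.25% to 1.82% leaves out a change the size of that of SMG5. The low knockdown replicate holds libraries 3_2 and 3_3 (237 and 242 CPM). Of the other 7 knockdown libraries, at 262.4 to 273.8 CPM, 6 lay within the range of the 9 scrambled libraries, from 262.5 to 280.7 CPM, and library 1_1 just below it. Without 3_2 and 3_3 the log2 fold change was 0.004. With the GC correction UPF1 was at -0.06 and passed (adjusted p = 0.00300).

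UPF2, the adaptor between UPF1 and UPF3 proteins, lies on chromosome 10 (11920022 to 12043170, minus strand). Its scrambled replicates were at 88.4, 86.0 and 86.9 CPM and its knockdown replicates at 78.9, 79.8 and 89.2 CPM. The first and second knockdown replicates lay below all scrambled replicates and the third above them. Within the third, library 3_1 was at 82.0 CPM and libraries 3_2 and 3_3 were at 91.1 and 94.4 CPM. The log2 fold change of -0.08 (SE 0.039) did not pass (adjusted p = 0.182 in edgeR). Without libraries 3_2 and 3_3 it was -0.13 and passed (adjusted p = 3.08e-06 in edgeR), as it did without the whole of knockdown replicate 3 (adjusted p = 1.47e-05), and the 7 remaining knockdown libraries, at 78.5 to 82.0 CPM, lay below all 9 scrambled libraries, at 82.7 to 90.0 CPM. This separation of 7 from 9 libraries was seen in 3.87% of tested genes and, of the decay factors, in UPF2 and SMG5. With the GC correction UPF2 was at -0.09 and passed (adjusted p = 0.00489).

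UPF3A and UPF3B are paralogs that compete for UPF2, UPF3B being the stronger activator of decay. UPF3A lies on chromosome 13 (114281584 to 114305817, plus strand) and UPF3B on chromosome X (119805311 to 119852998, minus strand). UPF3A was at 37.2, 37.6 and 39.9 CPM in scrambled and 38.7, 38.3 and 35.7 CPM in knockdown replicates. UPF3B was at 17.9, 18.4 and 19.3 CPM and then 18.7, 16.9 and 18.9 CPM. For both genes the groups overlapped, with log2 fold changes of -0.02 and -0.03 and adjusted p-values of 0.725 and 0.709 in edgeR. Their 95% intervals ran from -7.17% to 4.12% and from -9.0% to 5.09%. The balance of the pair was also taken as the ratio of their counts in each sample. It was 2.08, 2.04 and 2.06 UPF3A counts per UPF3B count in scrambled and 2.07, 2.27 and 1.90 in knockdown replicates. The knockdown ratios lay on both sides of the scrambled ones. The log2 ratio differed by 0.009 between the groups, and a two-sided exact permutation test gave p = 0.8, where the smallest possible p is 0.1. The lowest knockdown ratio was that of replicate 3, which holds libraries 3_2 and 3_3. Without these libraries the log2 ratio differed by 0.059, with p = 0.2 in the same permutation test.

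**Figure D3:**
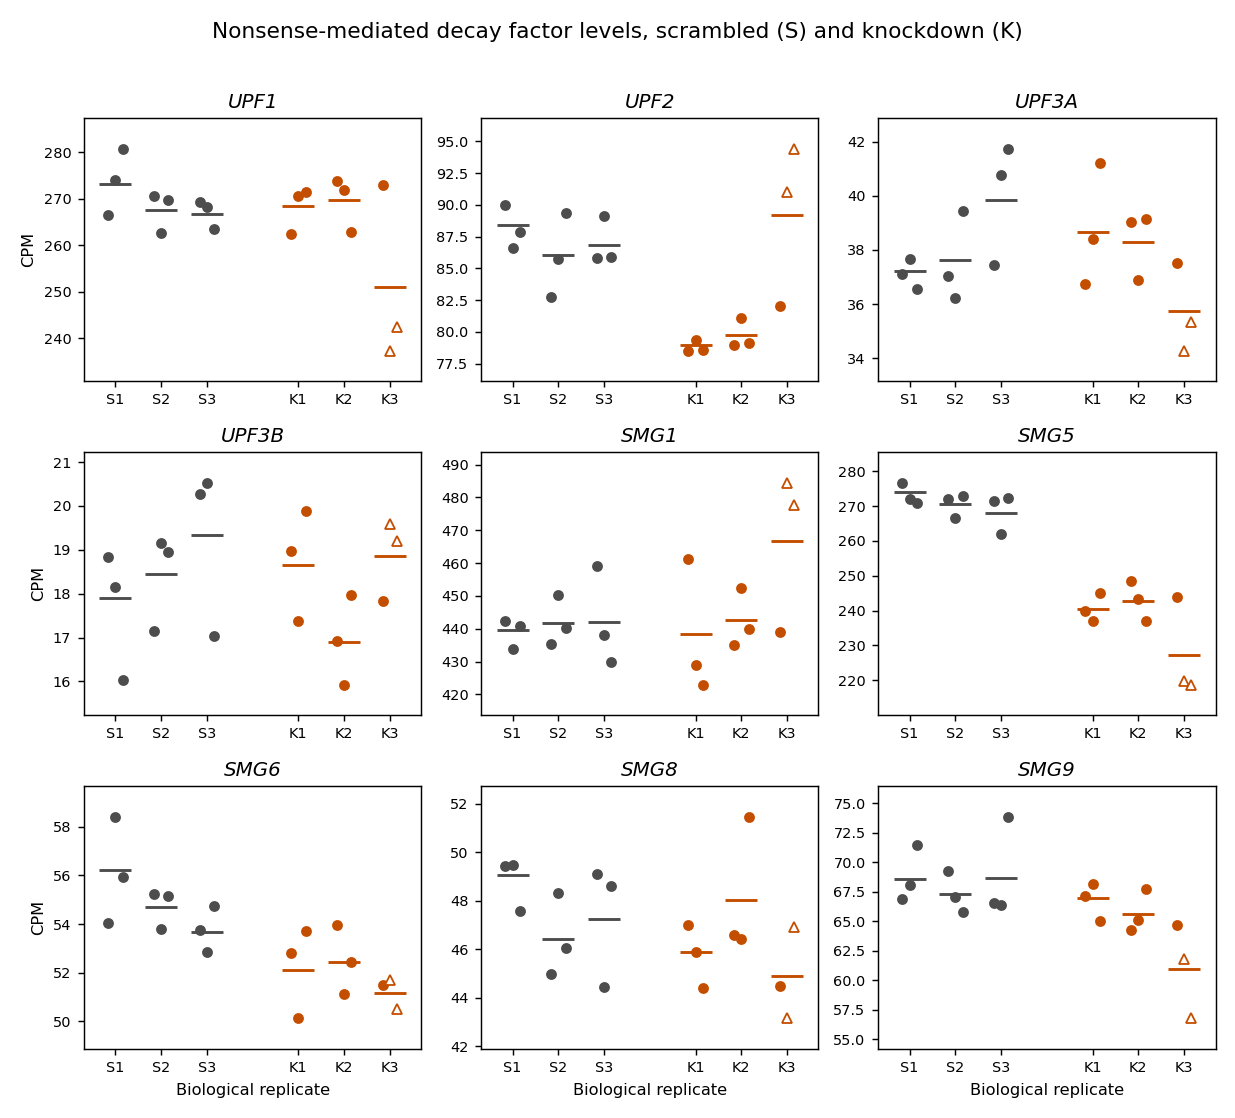
Level of each decay factor in CPM by biological replicate of scrambled (S1 to S3, grey) and knockdown cells (K1 to K3, orange). Points are technical libraries, open triangles are knockdown libraries 3_2 and 3_3, bars are the summed replicates, and the vertical axes do not start at 0. SMG5 shows all 9 knockdown libraries at 219 to 248 CPM, below the 9 scrambled libraries at 262 to 277 CPM.

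The 9 genes span transcripts with low and high GC content, and libraries 3_2 and 3_3 deviated from the other 7 knockdown libraries in both directions. UPF2, whose longest annotated transcript has 40.3% GC, was higher in 3_2 and 3_3 by 0.22 (log2), SMG1 (43.2% GC) by 0.13 and UPF3B (41.8% GC) by 0.12. UPF1 (60.5% GC) was at -0.17, SMG9 (55.3% GC) at -0.16, SMG5 (57.6% GC) at -0.14, SMG8 (47.8% GC) at -0.05 and SMG6 (55.3% GC) at -0.03. UPF3A, with 41.8% GC, was at -0.14, away from the other genes of low GC content. The 7 remaining knockdown libraries differed from the 9 scrambled libraries by -0.16 in SMG5, -0.13 in UPF2 and between -0.07 and 0.01 in the other 7 factors. The part of GC content in these deviations was not tested beyond the corrected values given here.

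**Figure D4:**
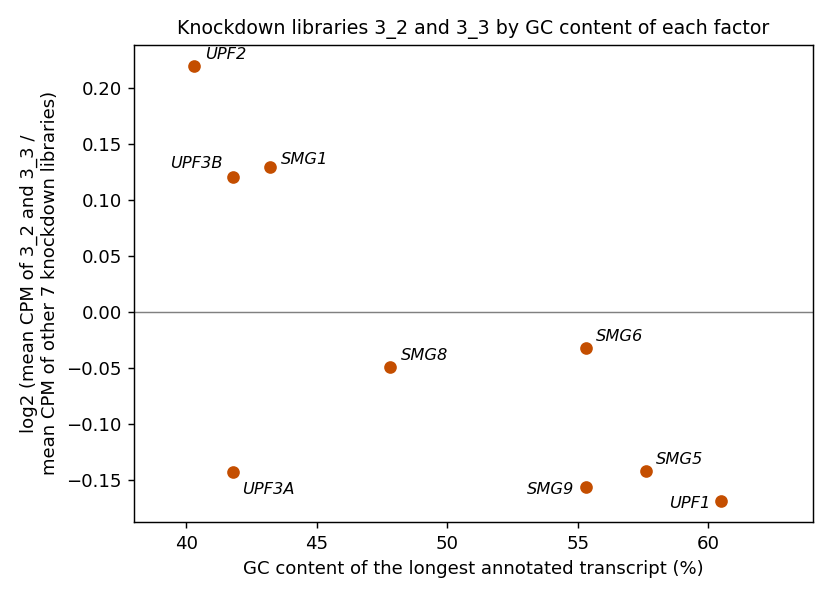
Difference between knockdown libraries 3_2 and 3_3 and the other 7 knockdown libraries (log2 ratio of mean CPM) against the GC content of the longest annotated transcript of each decay factor. UPF2 lies highest at 0.22 with 40.3% GC and UPF1 lowest at -0.17 with 60.5% GC, and UPF3A lies at -0.14 with 41.8% GC.

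Levels were compared between genes per length, as CPM per kilobase of the principal GENCODE transcript. In scrambled cells SMG5 was the most abundant of the 9 at 59.4 ± 0.677 CPM per kilobase, followed by UPF1 at 50.3 ± 0.658 and SMG1 at 27.4 ± 0.0823 (SD, n = 3). UPF3A (16.02 ± 0.592) and UPF2 (15.6 ± 0.215) overlapped in their replicates. SMG8 (13.7 ± 0.390), SMG9 (12.4 ± 0.142), SMG6 (9.21 ± 0.214) and UPF3B (7.81 ± 0.302) followed without overlap. In knockdown cells the order of the means was the same, but SMG5, at 49.9 to 53.3 CPM per kilobase, now overlapped UPF1, at 46.9 to 50.4. UPF3A and UPF2 overlapped there too. The value of SMG1 is uncertain because of the copies.

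The annotated transcripts of the 9 genes differ in features that can make an mRNA prone to decay. In the principal transcript the part after the stop codon ran from 237 bases in SMG8 to 4716 bases in SMG1, with 1363 in SMG5 and 1719 in UPF1, and 6 of the 9 were above the median of 983 bases over 13006 tested genes. UPF2 had 13 ATG triplets before its start codon and the other 8 genes 0 or 1, against a median of 1. GENCODE lists a transcript of the nonsense-mediated decay type for SMG1, SMG8 and SMG9, 1 each, and for none of the other 6, while 36.5% of tested genes with an annotation have at least 1. Genes with such a transcript were called lower in 8.06% of cases and genes without one in 7.18%, with median log2 fold changes of 0.001 and 0.005. Counts per gene do not separate those transcripts from the others.

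The profile of UPF1 over the 6 samples was compared with those of 10319 genes at a mean of 5 CPM or more, as the root mean square difference of log2 CPM after centring each gene on its mean. The closest were SNRNP70 (0.0048), CBS (0.0055) and MCM7 (0.0056). SNRNP70, a component of the U1 splicing particle, was at 139, 136 and 137 CPM in scrambled and 136, 137 and 128 CPM in knockdown replicates, and so shared the low knockdown replicate 3. That replicate holds libraries 3_2 and 3_3, where UPF1 was at 237 and 242 CPM, and the comparison was not repeated without them. Among the 36 pairs of decay factors the closest were UPF1 and SMG8 (0.0259) and the farthest SMG1 and SMG5 (0.124).

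The other genes of the pathway were taken from lists by role, and their counts stand against 7.49% of all tested genes called lower and 11.1% called higher. Of 10 other decay factors and assembly helpers 1 rose and 0 fell: NBAS, which takes part in decay at the endoplasmic reticulum, went from 270 ± 1.07 to 301 ± 10.3 CPM (SD, n = 3), a log2 fold change of 0.16. Of 12 genes of the exon junction complex and its partners 0 rose and 4 fell, with CASC3, a core subunit, at -0.13, EIF4A3, the helicase that clamps the complex on RNA, at -0.10 and RBM8A, its partner in the core, at -0.09. Of 11 genes for termination, cap and tail binding 0 rose and 1 fell, NCBP2 of the nuclear cap-binding complex at -0.12. With knockdown libraries 3_2 and 3_3 left out, a fit that called 15.5% of all genes lower and 16.5% higher, 7 of these 11 fell, 6 of the 12 junction complex genes fell, and of the 10 other factors 2 rose and 1 fell. Of 34 genes for deadenylation, decapping and exonucleases 2 rose and 2 fell, with EXOSC2 and EXOSC6, exosome subunits, at -0.15 and -0.11 and SKIC2, the exosome's helicase partner, at 0.10. In the fit without those libraries 3 of the 34 rose and 9 fell, against the same 16.5% and 15.5% of all genes. The median log2 fold change was -0.02, -0.05, -0.03 and -0.01 for these lists in the order given, and 0.002 over all genes tested.

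RNAs reported as prone to this decay formed 3 further lists. Among 10 noncoding hosts of small nucleolar RNAs, whose spliced forms are decay substrates, 0 rose and 8 fell, with a median log2 fold change of -0.175. GAS5 went from 279 ± 0.542 to 233 ± 1.46 CPM, SNHG1 from 213 ± 1.80 to 185 ± 5.90 CPM and SNHG5 from 148 ± 0.183 to 131 ± 3.90 CPM (SD, n = 3). Among 8 stress-related mRNAs reported as substrates 0 rose and 4 fell, with ATF4 at -0.30, ATF3 at -0.46 and DDIT3 at -0.31, all genes of the integrated stress response. Among 16 genes for splicing factors and ribosomal proteins that carry a poison exon or a similar switch 0 rose and 5 fell, with TRA2A at -0.15, SRSF7 at -0.12 and HNRNPA2B1 at -0.09, and 12 fell without libraries 3_2 and 3_3. These counts stand against 7.49% of all tested genes called lower, or 15.5% without those libraries. The lists were put together with earlier results of these data known, so the direction in them is not independent evidence, and transcription and decay cannot be told apart in these counts.

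**Figure D5:**
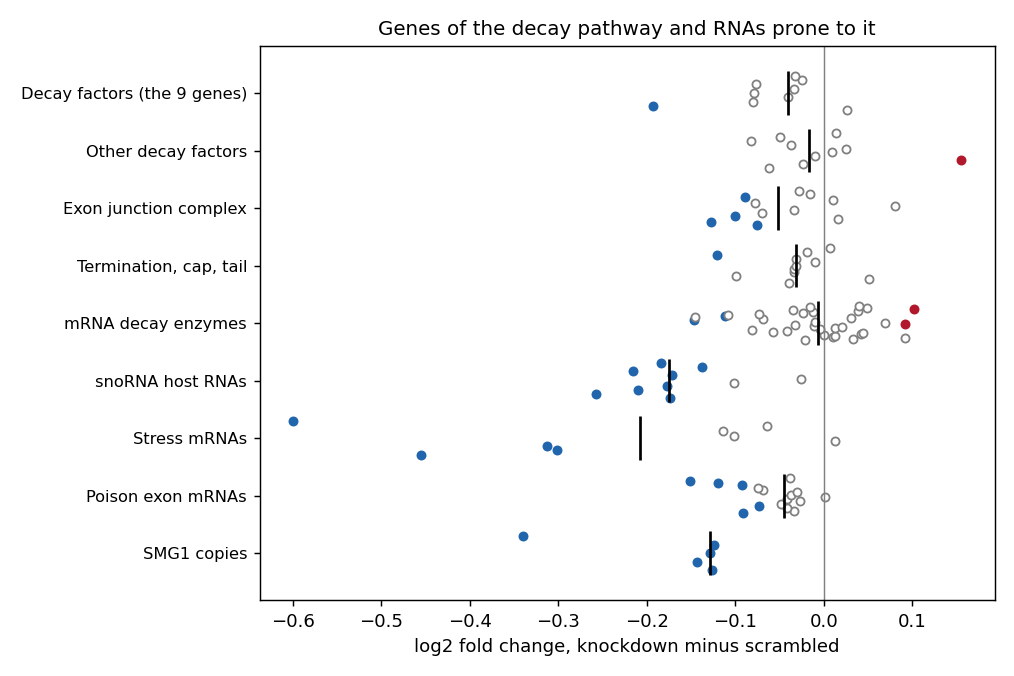
Log2 fold change (knockdown minus scrambled) of each tested gene in the 9 decay factors, the rest of the pathway, RNAs prone to the decay and the SMG1 copies. Blue points were called lower, red points higher and open points neither, and black bars are medians, which run from -0.01 for the decay enzymes to -0.21 for the stress mRNAs.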

How the data were processed

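Per the submitters' processing notes, reads passed through Trim Galore, STAR and featureCounts with GRCh38 as the build, while their versions, the annotation and the strand setting were not given in the sources used here. In the table as deposited by the authors the values are raw counts per gene symbol, not normalized, for 18 RNA-seq libraries prepared, per the labels' protocols, with a directional kit and rRNA depletion. Libraries that share the first number of their name were summed to 1 replicate. Nothing in the labels says that replicates came from separate cultures, so p-values measure only the spread between these samples. No pair of libraries was identical.

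The summed counts of 15678 genes that passed filterByExpr entered edgeR's quasi-likelihood test (version 4.0.16, R 4.3.3, robust, TMM scaling), and p-values were adjusted by Benjamini-Hochberg over all of them. Genes with an adjusted p below 0.05 were called. CPM used TMM-scaled library sizes, and log2 CPM a prior count of 2. Intervals of 95% came from the fitted log2 fold change, its SE and the fit's degrees of freedom. In simulated counts for this comparison (15678 genes, 200 changed) 66.7% of 1.2-fold, 80.6% of 1.5-fold and 95.4% of 2-fold changes were recovered, with 9 false calls. These counts were drawn independently for each sample, without a shift like that of libraries 3_2 and 3_3. The changes in the 9 decay factors were smaller than the smallest change simulated, so their recovery was not measured.

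Alternatives were DESeq2 1.42.0, other scaling factors, no count filter, a block on the replicate number, repeat libraries entered singly or summed by the second number, lowess offsets (span 0.3) for the GC content of transcripts (96.1% of tested genes had a value), removal of knockdown libraries 3_2 and 3_3, and each replicate left out. The decay factors and the gene lists were chosen with earlier results of these data known, and the alternatives for list counts were added after the data were seen. Genes outside the 9 were named by rule: the host gene, from each list the called genes with the smallest p, at most 3 (1 gene where none was called), all copies of SMG1 in the table, and the 3 genes closest to UPF1. HIC1 and the genes that share exons with the copies were added as neighbours. Results on some other genes are not reported here. Places, transcript lengths and GC content came from GENCODE release 29 (GRCh38), and sequences were aligned with blastn 2.17.0.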

Additional observations from a re-analysis of the deposited data

Results flagged for a closer look

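For each of the 9 decay factors the 9 libraries of each group were examined for a library far from the rest, and 1 of the 18 sets held such a library. SMG8 was at 51.5 CPM in its highest knockdown library, and the gap to the next, divided by the range of the 9, was 0.538, above Dixon's 95% critical value for 9 values. That library belongs to the second knockdown replicate. Chance gives such a gap in about 1 of 20 sets, and SMG8 was not called in any fit.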

How the results depend on the processing

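Of the 9 decay factors 0 rose in any of the 16 alternative fits. SMG5 was called lower in all 16, at adjusted p-values from 2.1e-16 to 0.00128 in edgeR and DESeq2. The number of decay factors called lower was 1 in the fit reported and 3 without knockdown libraries 3_2 and 3_3. It was 5 with the GC correction, also with the replicate block added, and 4 with the replicate block, with libraries entered singly or summed by the second number. It ran from 1 to 2 with each replicate left out, 2 being the value without knockdown replicate 3. UPF2, SMG6 and SMG9 made up the added calls, with UPF1 under the GC corrections. All genes called numbered 2920, against 4978 when summed by the second number, 4931 with GC correction, 4956 with GC correction and replicate block, 5015 without libraries 3_2 and 3_3, and 1755 (without scrambled replicate 1) to 4762 (without knockdown replicate 3) with each replicate left out. Raised genes made up 59.8% of calls and 46.9% with GC correction. The log2 fold change turned sign in 4 factors that were not called in the fit reported. Of these, UPF1 was called lower under the GC corrections. Without libraries 3_2 and 3_3 the log2 fold change was 0.00386 for UPF1, 0.00365 for UPF3A and -0.00365 for SMG1. It was 0.00556 without scrambled replicate 3 and 0.0105 without knockdown replicate 3 for UPF3A, 0.0144 without knockdown replicate 2 for UPF3B and -0.00193 without knockdown replicate 3 for SMG1. With each replicate left out, UPF3A ran from -0.0466 to 0.0105, UPF3B from -0.0596 to 0.0144 and SMG1 from -0.00193 to 0.0435. The UPF3A to UPF3B log2 ratio difference ran from -0.055 (without knockdown replicate 2) to 0.074 with each replicate left out, and was 0.009 with the replicate block. Same-numbered samples did not deviate together (correlations of 0.011 to 0.03), so the numbers are not taken as pairs. The cause of these shifts was not tested. Intervals cover the spread between 3 summed replicates a group. In the fit reported, changes of a few percent in a decay factor were not called. With GC correction UPF1, UPF2, SMG6 and SMG9 were called, at log2 fold changes of -0.055 to -0.085.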
